A study of Mus musculus with 8 samples.

Results

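The cadherins and EMT transcription factors are 10 genes taken by name, for their known roles: 4 cadherins (Cdh1, Cdh2, Cdh11 and Cdh13) and 6 transcription factors of epithelial-mesenchymal transition, or EMT (Snai1, Snai2, Twist1, Twist2, Zeb1 and Zeb2). These genes were chosen with earlier results of these data known. All 10 were among the 18768 genes of the count table, and all 10 were among the 15153 genes that passed the filter on low counts. RNA had been sequenced from 4 mouse fibrosarcoma lines, a tumor of soft tissue, with 2 libraries per line. Each line was grown out of a subcutaneous tumor that methylcholanthrene (MCA), a chemical carcinogen in peanut oil, had induced, and was cultured for at least 10 passages in RPMI medium with serum. Lines MC010 and MC011 carry the genotype label KO, for tumors of IRF8 KO mice, and WT is the label of lines MC654 and MC659. The WT mice were C57BL/6, as the study's methods have it, and how the IRF8 KO allele was made is not described here. The age of the mice is not given in the sources used here, and no treatment of the cultures is given. A line is 1 tumor, so each label rests on 2 tumors, and what is particular to a tumor cannot be told apart from what goes with the label.

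Cadherins are surface proteins that join cells to cells. In epithelia E-cadherin (Cdh1) holds the sheet together through catenins. Fibroblasts and other mesenchymal cells carry N-cadherin (Cdh2) and OB-cadherin (Cdh11) instead, while T-cadherin (Cdh13) lacks the inner tail and is tethered to the membrane by a lipid anchor. The SNAIL and ZEB zinc-finger proteins repress Cdh1 by binding E-boxes, short motifs of the letters CANNTG, and the TWIST proteins bind such motifs with a partner of the bHLH family. Fibroblast-type cells commonly make several of these factors together.

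The label was checked first on its own target. Irf8, the transcription factor whose loss the label names, gave 442 and 347 counts in MC010, 32 and 10 in MC011, 1 and 2 in MC654, and 1 and 0 in MC659. The study genotyped DNA of the 4 lines by PCR, and a count over the whole gene does not show whether a transcript is intact. The RNA went against the labels, and every direction below is therefore one of labels. Libraries held 74063616 to 116206078 counts, so that 3 counts, taken as the floor of a library, equalled 0.0262 to 0.0408 CPM (counts scaled for library size and by TMM). The summed level of 9 mesenchymal markers, such as Col1a1 and Vim, was 6647 to 9316 CPM in the 8 libraries. That of the 5 epithelial markers in the table was 549.5 CPM in MC010, 40.6 in MC011, 129.0 in MC654 and 119.6 in MC659, most of it from Krt8 and Krt18. Epcam was under 1 CPM as a mean of each line. Against the direction of the sum, Krt19, Epcam and Krt14 were called lower in MC010 than in MC011. Their line means in MC010 and MC011 were 1.49 and 6.04, 0.340 and 0.995, and 0.0481 and 0.891 CPM. The 5 hematopoietic markers in the table summed to 6.29 to 7.57 CPM under the label KO and 9.92 to 11.6 under WT, and the 5 endothelial ones to 10.6 to 12.9 and 3.00 to 3.72. Most of the endothelial sum was Egfl7, at 10.7 CPM under KO and 2.76 under WT (means of 4 libraries, as for the next genes). Tek stood at 0.273 and 0.0520, and both Egfl7 and Tek were called higher under KO. Kdr stood at 0.119 and 0.0237 and was not tested. Pecam1 stood at 0.136 and 0.216 and Cdh5 at 0.132 and 0.293, and neither was called. The part of such markers in the results was not tested.

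Promoter sequence was at hand for 4 of the 10 genes, Snai1, Twist1, Twist2 and Zeb2, from RefSeq on GRCm38.p6. Those of 3 are printed, the 250 bases before the start: the TWIST pair, because the libraries of the labels overlapped for one and not for the other, and Snai1, because it alone held an E-box. The windows were chr12:33957421-33957670 for Twist1, chr1:91801211-91801460 for Twist2 and chr2:167537945-167538194 for Snai1, all on the plus strand. Capitals mark an E-box (CANNTG, the same on both strands) and a CCAAT box (CCAAT or, on the other strand, ATTGG).
Twist1: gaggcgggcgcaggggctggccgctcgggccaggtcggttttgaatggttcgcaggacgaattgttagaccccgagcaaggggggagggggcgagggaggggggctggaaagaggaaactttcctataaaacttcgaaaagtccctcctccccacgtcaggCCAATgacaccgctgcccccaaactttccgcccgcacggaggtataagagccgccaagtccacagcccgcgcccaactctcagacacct
Twist2: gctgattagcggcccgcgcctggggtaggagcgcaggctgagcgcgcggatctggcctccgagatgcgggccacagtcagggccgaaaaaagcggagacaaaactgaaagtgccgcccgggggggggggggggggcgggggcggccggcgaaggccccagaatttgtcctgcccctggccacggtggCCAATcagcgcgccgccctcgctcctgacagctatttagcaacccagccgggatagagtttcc
Snai1: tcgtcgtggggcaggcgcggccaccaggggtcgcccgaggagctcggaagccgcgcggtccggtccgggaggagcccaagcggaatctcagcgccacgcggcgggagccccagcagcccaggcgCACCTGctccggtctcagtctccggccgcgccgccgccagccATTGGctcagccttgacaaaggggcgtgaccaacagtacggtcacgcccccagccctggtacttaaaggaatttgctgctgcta
The one E-box, CACCTG, lay 126 bases before the start of Snai1, and neither TWIST window nor any of the 4 Zeb2 windows held a CANNTG. That motif was in 66.2% of the 32851 promoter windows of this length, and CACCTG or CAGGTG, which lie within it, in 17.2%. CATATG, another form of it, was in 3.46% of all windows and in none of these. The CCAAT box began 89 bases before the start of Twist1, 63 before Twist2 and 84 before Snai1, and 1 of the 4 Zeb2 windows held 2. It was in 33.8% of all windows. TATAA or TTATA occurred 2 times in the Twist1 window, 0 times in those of Twist2 and Snai1, 1 time in each of 2 overlapping Zeb2 windows, and in 22.8% of all windows. The CCAAT and TATAA letters were searched for after the sequences had been read, and a match is a description of letters only.

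Under the label KO, 3 mesenchymal or anchored cadherins were higher, Cdh2, Cdh11 and Cdh13, and 1 repressor was lower, Zeb1. Cdh13 differed the most, 77.0-fold, against 7.41-fold for Cdh11 and 2.42-fold for Cdh2, and Zeb1 was at 0.559 of its WT-labelled level. These 4 of 10 genes were called, that is, had an adjusted p under 0.05 from edgeR's quasi-likelihood test (Benjamini-Hochberg over all genes) and a log2 fold change over 0.59 in size. Of all genes tested, 22.5% were called, 13.7% higher and 8.72% lower. The libraries of the labels did not overlap for 5 of the 10, those 4 and Twist1, where 42.5% of all genes tested did not overlap, a share near that of the members. The test took the 4 libraries of a label as replicates although they come from 2 tumors. With the counts of each line summed, 2 lines against 2, edgeR called 0 of the 10 and 0 of all genes tested, while 3361 genes had an unadjusted p under 0.05.

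**Figure D1:**
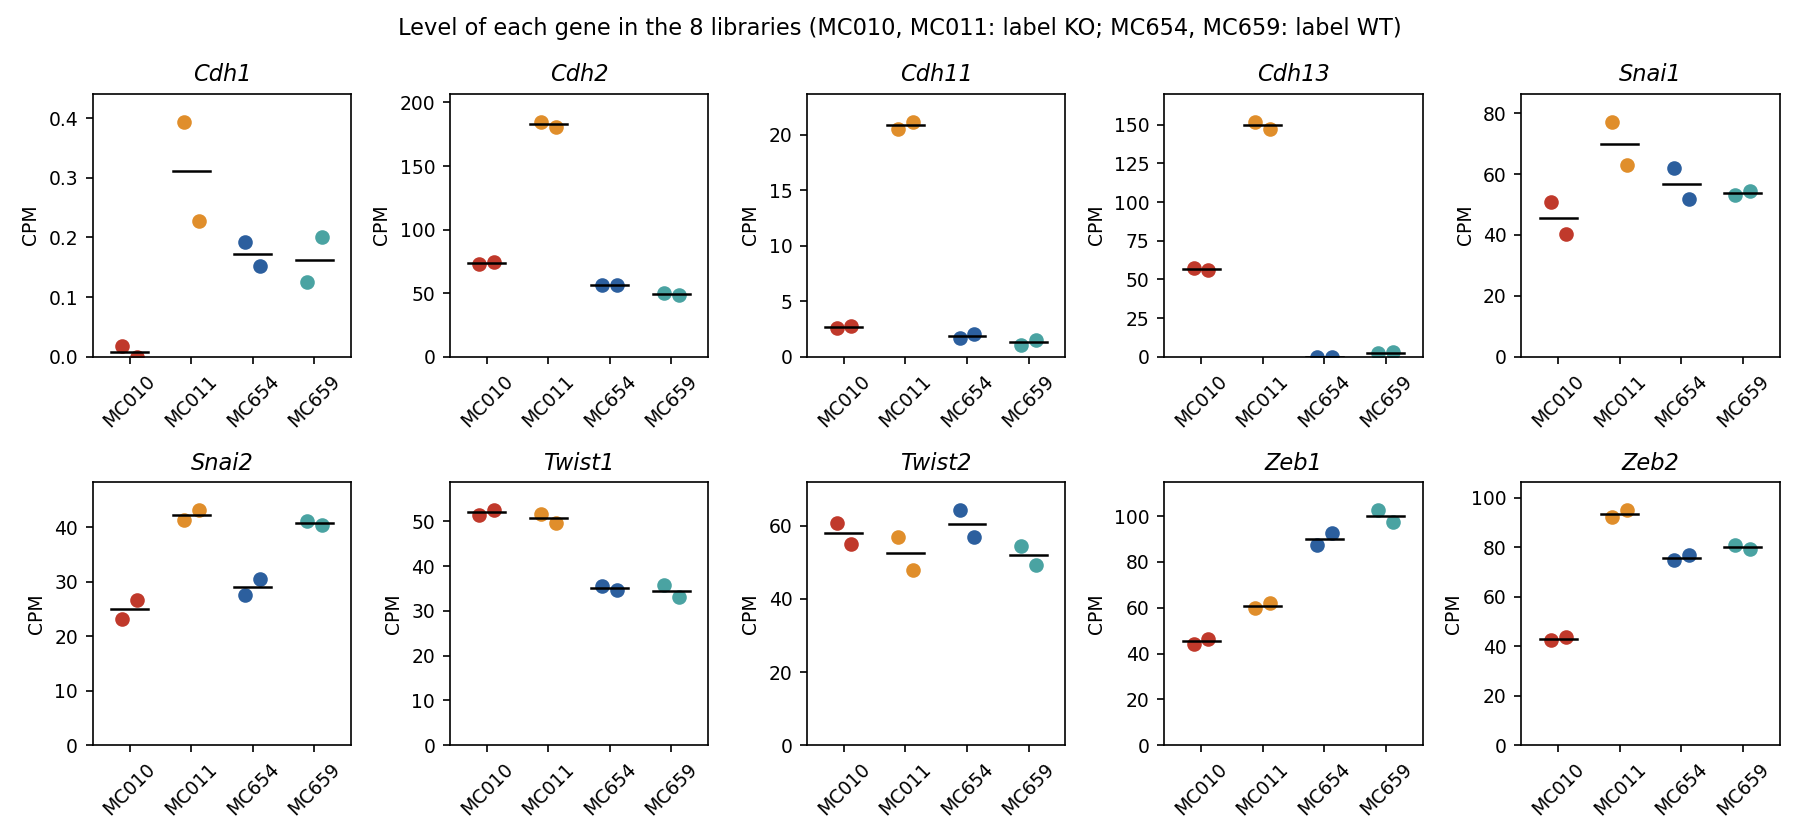
Level of each of the 10 genes in CPM (linear axis from 0, one scale per panel), with a point for each library and a bar for the mean of the 2 libraries of a line. Cdh13 stood at 55.8 to 152 CPM in the libraries labelled KO and at 0.0588 to 3.01 in those labelled WT, while Twist2 overlapped between the labels at 47.9 to 64.2 CPM.

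E-cadherin RNA was scarce in every line. Cdh1 (ENSMUSG00000000303, build mm10, chromosome 8, 106603351 to 106670246) gave only 2 and 0 counts in MC010, 38 and 18 in MC011, 16 and 13 in MC654, and 11 and 18 in MC659. The highest level in any library was 0.394 CPM, and MC010 was at or under the floor of 3 counts in both of its libraries. The mean of Cdh1 was 9.28-fold the floor of MC010, averaged over its 2 libraries, in MC011, 5.14-fold in MC654 and 4.84-fold in MC659. These ratios leave out the counting error of MC011, MC654 and MC659, so they are not lower bounds. For MC010 against MC011, MC654 and MC659, edgeR's confidence intervals reached up to -2.91, -1.90 and -1.81 on the log2 scale. The labels overlapped, with 0.160 ± 0.187 CPM under KO and 0.167 ± 0.0351 under WT (SD, n = 4 libraries), and an adjusted p of 0.968 from edgeR. MC011, MC654 and MC659 did not differ from each other beyond the spread of their libraries, with an adjusted p of 0.154 or more from edgeR for each pair of them.

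N-cadherin was the highest of the 4 cadherins per length in every line. Cdh2 (ENSMUSG00000024304, chromosome 18, 16588877 to 16809246) stood at 72.8 and 74.2 CPM in MC010, 184.9 and 180.6 in MC011, 56.7 and 56.6 in MC654, and 49.98 and 48.7 in MC659. Every library labelled KO lay above every library labelled WT, and MC011 stood far above the rest. The log2 fold change between the labels was 1.27 with an SE of 0.33 and an adjusted p of 0.0184 from edgeR. MC011 alone exceeded the mean of the WT-labelled lines by 1.79 (SE 0.04, log2), and MC010 by 0.48 (SE 0.04), which was under the fold threshold. All 3 steps in the order MC011, MC010, MC654, MC659 had an adjusted p under 0.05 from edgeR's test between lines.

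OB-cadherin, named for osteoblasts, followed the same order at a lower level. Cdh11 (ENSMUSG00000031673, chromosome 8, 102632095 to 102785642) stood at 2.62 and 2.76 CPM in MC010, 20.5 and 21.2 in MC011, 1.70 and 2.07 in MC654, and 1.08 and 1.501 in MC659. No library labelled KO overlapped one labelled WT, but the gap between MC010 and MC654 was small beside that between MC011 and MC010. The log2 fold change between the labels was 2.89 with an SE of 0.77 and an adjusted p of 0.0193 from edgeR. MC011 was above the WT-labelled lines by 3.74 on the log2 scale (SE 0.11) and MC010 by 0.78 (SE 0.13), and both were called.
The calls of Cdh2 and Cdh11 between the labels rested on few tumors. With MC654 left out their adjusted p from edgeR became 0.121 and 0.128, and with MC659 left out 0.173 and 0.182. Leaving out 1 library of MC659 gave 0.0549 or 0.0551 for Cdh2 and 0.0607 or 0.0566 for Cdh11, and leaving out the first library of MC654 gave 0.0529 for Cdh11. Without MC011, Cdh2 kept an adjusted p of 0.000432 but its log2 fold change was 0.46, under the threshold, and that of Cdh11 was 0.75. Without MC010 that of Cdh11 was 3.70, and it was 2.26 with one group per line and 2.17 in limma with a random block per line. Over all alternatives the adjusted p ran from 7.80e-14 to 0.243 for Cdh2 and from 3.09e-11 to 0.247 for Cdh11. With the line as a random block in limma, Cdh11 was not called, at 0.211.

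T-cadherin showed the widest spread of the 10. Cdh13 (ENSMUSG00000031841, chromosome 8, 118283733 to 119324921) had 6576 and 4100 counts in MC010, 14650 and 11626 in MC011, 8 and 5 in MC654, and 190 and 271 in MC659. In CPM these were 57.5 and 55.8, 152.0 and 147.2, 0.0959 and 0.0588, and 2.15 and 3.01. The labels lay far apart, and within each label the 2 lines also lay apart. The log2 fold change between the labels was 6.27 with an SE of 1.15 and an adjusted p of 0.00386 from edgeR. Its size depended on which lines were used. It was 10.35 with MC659 left out, 5.31 with MC654 left out and 5.39 with MC011 left out, and 5.87 to 7.05 with each library left out, highest without the second library of MC659. It was 7.67 with one group per line and 7.61 in limma with a random block per line. Line MC659 exceeded MC654 by 5.04 on the log2 scale (SE 0.27), the only member called between the WT-labelled lines, where 4.95% of all genes were called. Its line means spanned 10.6 log2 units, wider than in 99.9% of the genes tested. Of the 22 other genes tested within 1 Mb of Cdh13, 4 were called higher and 1 lower under the label KO. The share called was near that of all genes tested, 22.5%. Their median log2 fold change was 0.28, against 0.021 for all genes.

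Per length of exon, in RPKM (CPM divided by the exon length in kb), the 4 cadherins differed between lines in make-up as well as in amount. Other cadherins are outside the sum and shares given here, such as Cdh26 at 6.28 RPKM and Cdh24 at 4.50 in MC010 (line means). The sum of the 4 cadherins was 14.4 and 14.5 RPKM in MC010, 38.8 and 37.9 in MC011, 7.27 and 7.29 in MC654, and 6.54 and 6.52 in MC659. Cdh2 made up 59.01 to 63.5% of that sum in the libraries labelled KO and 92.6 to 96.7% in those labelled WT. Cdh13 made up 34.3 to 35.4% in all 4 libraries of MC010 and MC011, although the sums of these lines differed, and 0.0719 to 4.11% in MC654 and MC659. Cdh11 reached 5.94 and 6.28% in MC011 and 1.85 to 3.19% elsewhere, and Cdh1 stayed at or below 0.671%. Lengths came from the union of exons in the GENCODE M21 annotation.

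**Figure D2:**
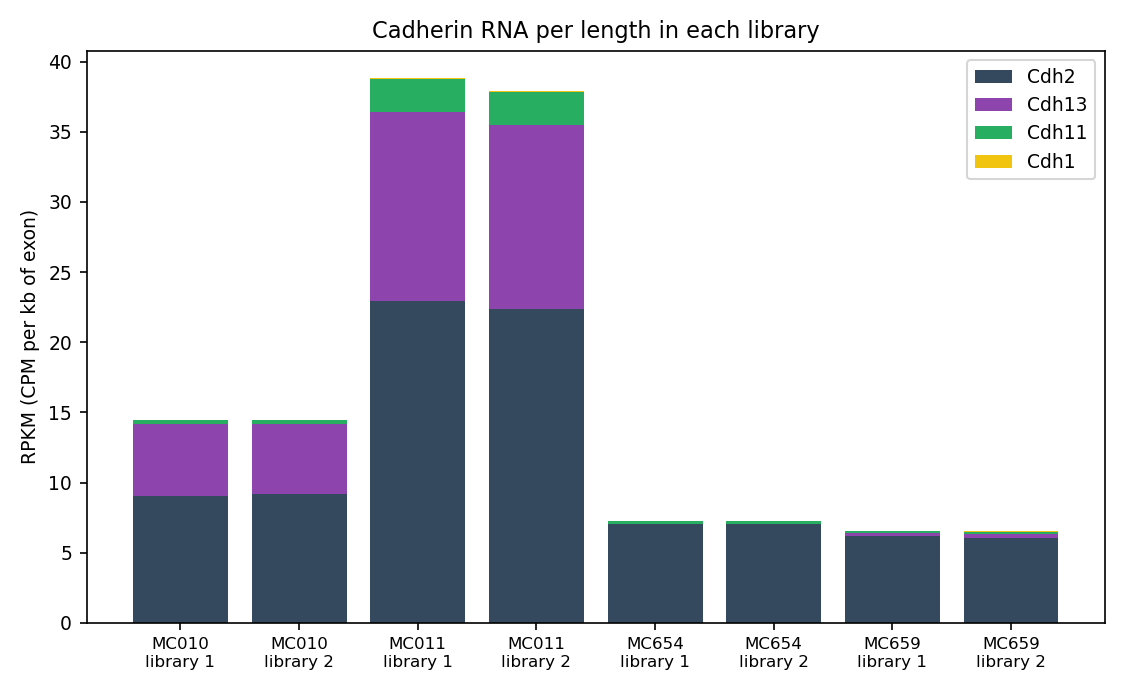
Stacked RPKM of Cdh2, Cdh13, Cdh11 and Cdh1 in each library (linear axis from 0). Cdh13 fills 34.3 to 35.4% of each bar of MC010 and MC011 and at most 4.11% of each bar of MC654 and MC659.

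The SNAIL factors did not separate the labels. Snai1, the founding repressor of Cdh1 (ENSMUSG00000042821, chromosome 2, 167538195 to 167542814), stood at 50.8 and 40.2 CPM in MC010, 77.2 and 62.8 in MC011, 61.8 and 51.9 in MC654, and 53.1 and 54.4 in MC659. The labels overlapped, with a log2 fold change of 0.062 and an interval of -0.36 to 0.49 (95%, edgeR, adjusted p = 0.821). The highest and the lowest library both carried the label KO. Snai2, also called Slug (ENSMUSG00000022676, chromosome 16, 14705852 to 14709385), stood at 23.2 and 26.6 CPM in MC010, 41.3 and 43.1 in MC011, 27.6 and 30.5 in MC654, and 41.2 and 40.4 in MC659. It fell into a lower pair, MC010 and MC654, and a higher pair, MC011 and MC659, each holding 1 line of either label. The step between MC659 and MC654 was 0.49 on the log2 scale (SE 0.07, adjusted p = 0.000266, edgeR), while MC011 and MC659 differed by 0.050 with an interval of -0.10 to 0.20. Within the lower pair MC654 was above MC010 by 0.23, with an interval of 0.068 to 0.38 (adjusted p = 0.0138, edgeR).

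The TWIST factors, bHLH proteins of the embryonic mesoderm, gave one gene whose libraries separated by label and one whose libraries did not. Twist1 (ENSMUSG00000035799, chromosome 12, 33957671 to 33959829) stood at 51.5 and 52.5 CPM in MC010, 51.7 and 49.6 in MC011, 35.6 and 34.8 in MC654, and 35.7 and 33.0 in MC659. The labels did not overlap, and within each label the lines differed by less than the spread of their libraries. Its log2 fold change of 0.56 (SE 0.05) had an adjusted p of 0.000159 from edgeR but missed the fold threshold, so Twist1 was not called. On line sums its unadjusted p was 0.00745, the smallest among the 10, and its adjusted p 0.116. Twist2 (ENSMUSG00000007805, chromosome 1, 91801461 to 91848028) stood at 60.8 and 55.1 CPM in MC010, 56.9 and 47.9 in MC011, 64.2 and 56.9 in MC654, and 54.4 and 49.3 in MC659. The libraries of a line differed about as much as the lines did, and the log2 fold change between the labels was -0.027 with an interval of -0.26 to 0.21 (edgeR, adjusted p = 0.860). An antisense gene, Gm29100, shares 1477 exon bases with Twist2 and had up to 10.9% of its counts. The libraries were stranded, but no source used here states whether the counting used strand, so reads of the pair may not have been told apart.

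The ZEB factors, large zinc-finger and homeodomain repressors, gave 1 called gene, Zeb1. Zeb1 (ENSMUSG00000024238, chromosome 18, 5591860 to 5775467) stood at 44.1 and 46.5 CPM in MC010, 59.7 and 62.0 in MC011, 87.4 and 92.7 in MC654, and 102.6 and 97.6 in MC659. All libraries labelled KO lay below all labelled WT, and the log2 fold change was -0.84 (SE 0.12, adjusted p = 0.00132, edgeR). Both KO-labelled lines were below the WT-labelled lines on their own, MC010 by -1.07 and MC011 by -0.64. Zeb2 (ENSMUSG00000026872, chromosome 2, 44983632 to 45117395) stood at 42.4 and 43.7 CPM in MC010, 92.1 and 94.99 in MC011, 74.7 and 76.7 in MC654, and 81.0 and 79.3 in MC659. The KO-labelled lines lay on opposite sides of the WT-labelled ones, MC010 by -0.86 (SE 0.04) and MC011 by 0.26 (SE 0.04). Between the labels the log2 fold change of Zeb2 was -0.19 with an interval of -0.83 to 0.45. Antisense genes shared exon bases with both, with at most 0.643% of the counts of Zeb1 and 0.879% of those of Zeb2.

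The ratio of RPKM values was taken within each pair. Zeb1 to Zeb2 was 2.02 and 2.07 in MC010, 1.26 and 1.27 in MC011, 2.27 and 2.35 in MC654, and 2.46 and 2.39 in MC659, so MC011 stood apart from the other 3 lines. Twist1 to Twist2 was 1.65 to 2.02 in the libraries labelled KO and 1.08 to 1.31 in those labelled WT, with no overlap. Snai1 to Snai2 was 1.82 to 2.73 and 1.61 to 2.79, with full overlap. As levels per length, Snai1 (28.1 to 43.2 RPKM as line means) and Twist1 (21.1 to 31.9) led the factors in every line, and Zeb2 (2.16 to 4.69) was the lowest. The sum of the 6 factors was 94.3 to 128 RPKM, against 6.52 to 38.8 for the cadherins.

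**Figure D3:**
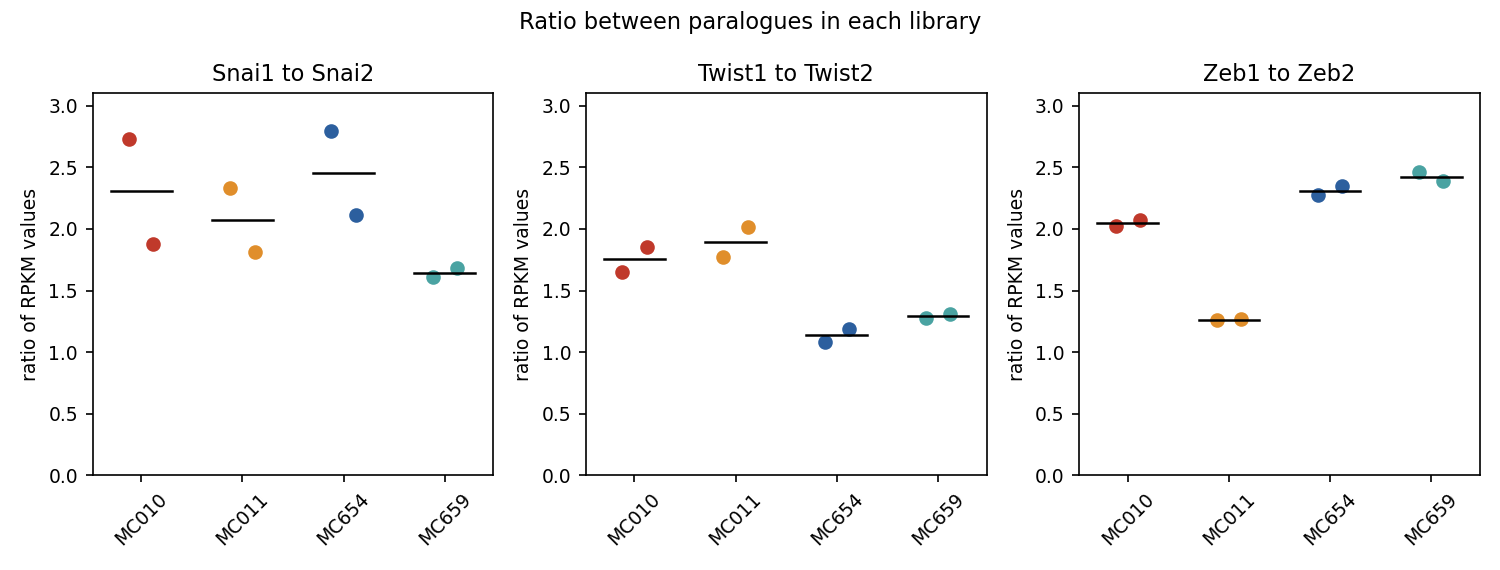
Ratio of the RPKM of Snai1 to Snai2, Twist1 to Twist2 and Zeb1 to Zeb2 (linear axis from 0), a point for each library and a bar for the line mean. Twist1 to Twist2 separates the labels at 1.65 or more against 1.31 or less, and Zeb1 to Zeb2 is lowest in MC011, at 1.26 and 1.27.

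The KO-labelled lines differed from each other in 7 of the 10 genes. Cdh1, Cdh2, Cdh11, Cdh13, Snai1, Snai2 and Zeb2 were all called lower in MC010 than in MC011, and none was called higher. Of all genes tested, 31.6% were called between these lines and 16.0% were lower in MC010. The log2 differences were -1.31 for Cdh2, -2.96 for Cdh11, -1.40 for Cdh13, -0.62 for Snai1, -0.76 for Snai2 and -1.12 for Zeb2. Zeb1 was lower in MC010 by 0.43 in size, under the threshold, and Twist1 and Twist2 differed by 0.037 and 0.15 with intervals of -0.086 to 0.16 and -0.033 to 0.32. Set against the WT-labelled lines, which both comparisons share, MC010 had Cdh11 and Cdh13 higher and Cdh1, Zeb1 and Zeb2 lower, 5 of 10 beside 37.1% of all genes. MC011 had Cdh2, Cdh11 and Cdh13 higher and Zeb1 lower, 4 of 10 beside 30.7%.

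**Figure D4:**
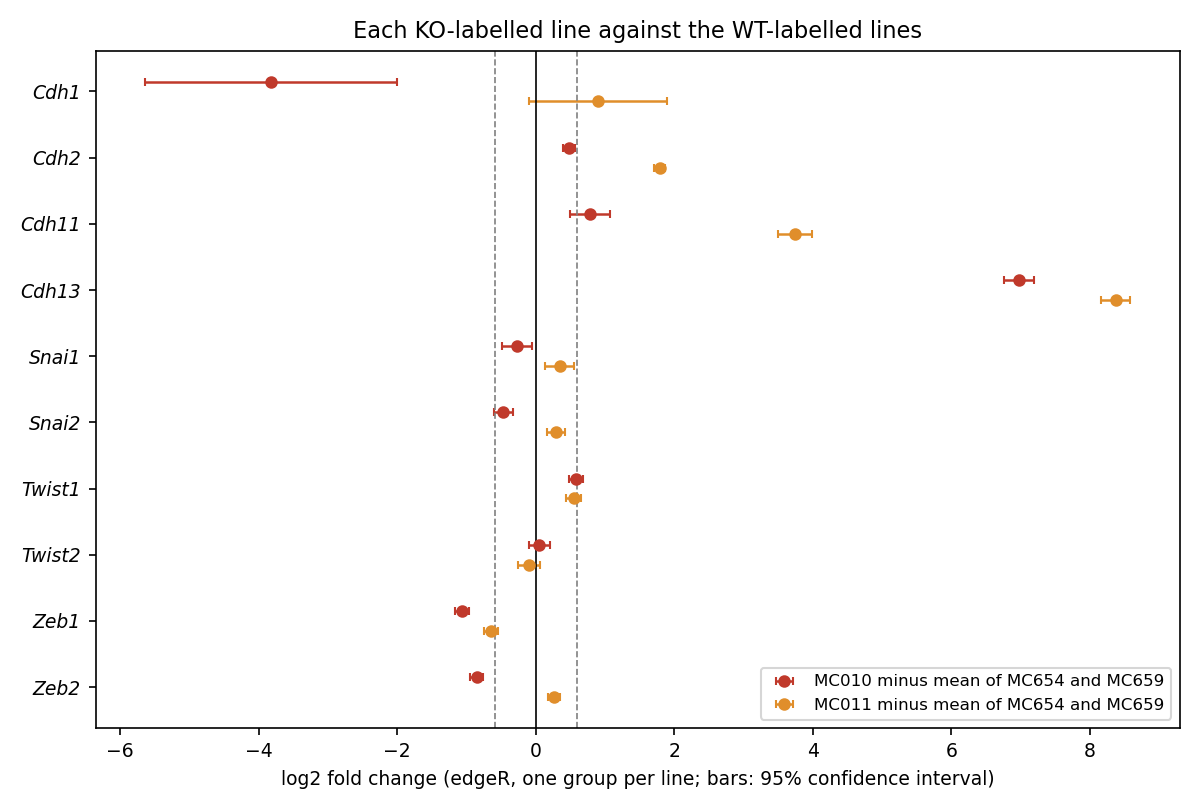
Log2 fold change of MC010 and of MC011 against the mean of MC654 and MC659 for each gene, with 95% confidence intervals from edgeR. Dashed lines mark a log2 fold change of 0.59 in size. Zeb2 lies at -0.86 in MC010 and 0.26 in MC011, Zeb1 at -1.07 and -0.64, and Cdh1 in MC010 has a fitted value that rests on 2 and 0 counts.

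The genes that work with these proteins gave the setting. Beside the counts called in each list below, 22.5% of all genes tested were called between the labels. Of 19 other cadherins listed, 10 were in the table and 8 tested, and 2 were called higher and 2 lower under the label KO (median log2 fold change -1.49, against 0.021 for all genes). Cdh26 was higher by 5.58, with line means of 18.9 CPM in MC010, 2.76 in MC011, 0.232 in MC654 and 0.220 in MC659, and Cdh24 was higher by 1.00. Cdh22 and Cdh17, called lower by -2.69 and -1.86, were under 1 CPM as a mean of each line. Among 12 catenins and junction partners tested of 15, Arvcf, a catenin of the p120 family, was higher by 1.53, while Nectin2, an adhesion receptor, and Vcl, the actin linker vinculin, were lower by -0.90 and -0.69. The median of that list was -0.14.

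For the TWIST factors, 7 of 9 listed bHLH partners and inhibitors were tested and 3 were called, all higher and all of the ID family, which sequester bHLH partners. Id4 stood at 55.5 CPM in MC010, 6.01 in MC011, 0.434 in MC654 and 0.471 in MC659 (line means), and Id3 at 323 and 213 against 105 and 90.7. The third, named because it completes the count, was Id1, at 1.09 on the log2 scale, and the list had a median of 0.33. Id2, also of the ID family, was not called, at 0.11. Of 17 cofactors and turnover genes of SNAIL and ZEB, all tested, 1 was called, the histone methyltransferase Ezh2, higher by 0.63, with a list median of -0.029. Among 12 of 20 other EMT transcription factors tested, 3 were higher and 2 lower, with a median of 0.54. Klf4 was higher by 2.82 and Prrx2 by 1.47, and Snai3, a relative of Snai1, and Grhl1, an epithelial factor, were lower by -3.85 and -2.77, with line means under 2 CPM.

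Of 20 epithelial genes that SNAIL and ZEB proteins repress, 14 were in the table and 10 tested, and 7 were called higher under the label KO and none lower (median 2.05). Genes that are high under only 1 label pass a filter on low counts through that label, so this count is not support for a direction. Cldn1, a tight-junction claudin, stood at 3.22 and 2.90 CPM in MC010 and MC011 against 0.101 and 0.0617 in MC654 and MC659. Spint1, a protease inhibitor, stood at 9.29 and 0.778 against 0.155 and 0.240. The keratins Krt8 and Krt18, picked here after their values were seen, were far more abundant and were not called, with Krt8 at 284 CPM in MC010, 1.29 in MC011, 20.04 in MC654 and 37.5 in MC659. Of 17 mesenchymal genes tested of 18, 3 were higher and 4 lower, with a median of 0.39. Pdgfra, the receptor for PDGF on fibroblasts, was higher by 3.82 and S100a4 by 2.17, while Tagln, an actin-binding protein, and Fn1, fibronectin, were lower by -4.18 and -2.33. Fn1 stood at 1153 and 2021 CPM in MC010 and MC011 and at 7956 and 7991 in MC654 and MC659.

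**Figure D5:**
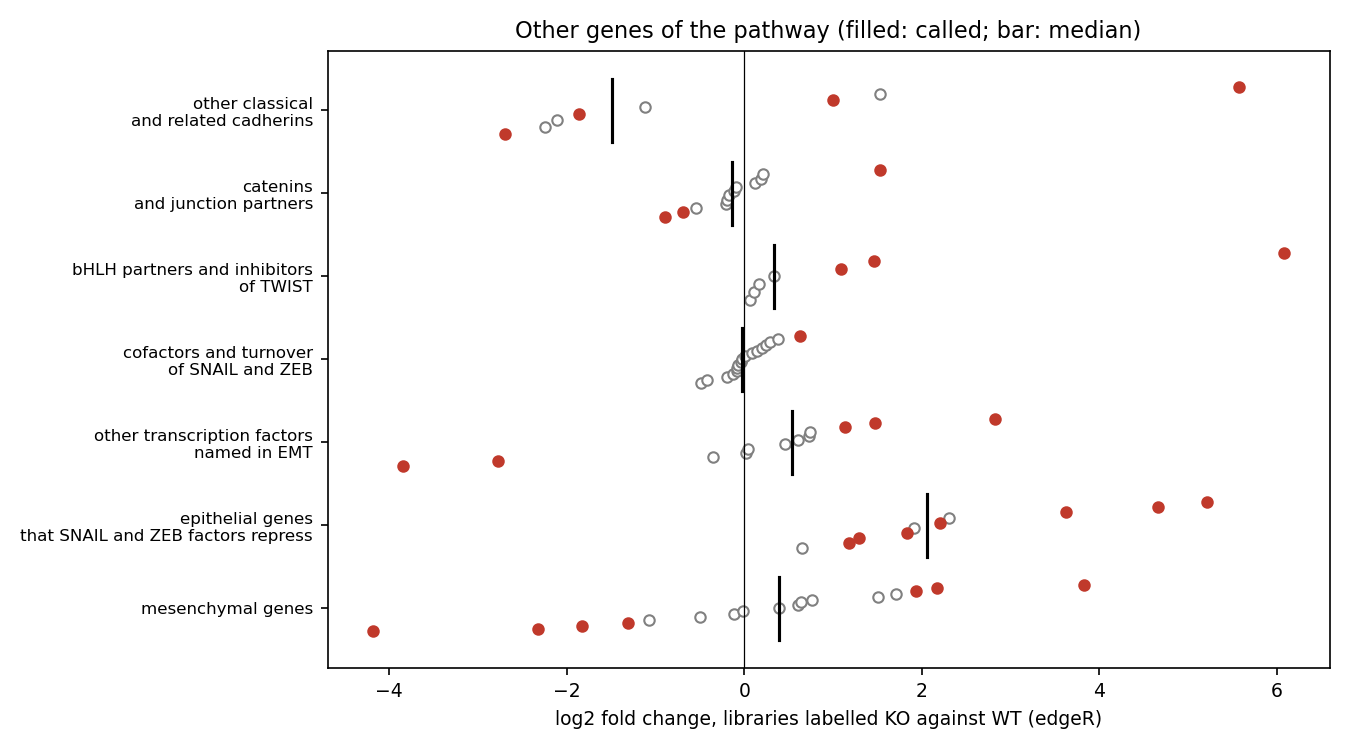
Log2 fold change between the labels for the tested genes of 7 lists, each point a gene, filled where called, and a bar at the list median. The epithelial list has a median of 2.05 and the other cadherins one of -1.49, beside 0.021 for all genes tested.

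For the 3 members whose line means spanned at least 2 log2 units, the genes nearest in pattern over the 8 libraries were sought by the root mean square difference of centred log2 CPM. Nearest to Cdh11 were Ctsh, Zdhhc2 and Klf2, at 0.18, 0.20 and 0.26. Nearest to Cdh1 were Lrfn1, Lingo1 and Crip2, at 0.25, 0.27 and 0.29. Those distances rest in part on MC010, where Cdh1 had 2 and 0 counts and its log2 CPM is set by the prior count of 2. Cdh13 had no gene as near, the closest being Cyp1b1, Timp3 and Sox11 at 1.30, 1.53 and 1.69.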

How the data were processed

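RNA of 8 libraries from 4 lines was sequenced (stranded mRNA-Seq). The authors aligned reads to mm10 (GRCm38.p6) with STAR 2.7.3a and counted them with HTSeq 0.11.2, as the submitters' processing notes name them, and the study's methods name other versions of both. The deposited table holds a raw count per gene and library, used here, and counts scaled by size factors (a signal), not used. The authors' deposited DESeq2 comparison (mean signal, log2 fold change with its error, Wald score, p-value and adjusted p-value) was not used. Whether the counting used strand is not given in the sources used here. All per-sample columns matched a library by name.

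Counts were compared in R 4.3.3 with edgeR 4.0.16: filterByExpr by genotype, TMM, robust quasi-likelihood fit, Benjamini-Hochberg adjustment over 15153 genes. One fit had a group per label, another a group per line. Calls needed an adjusted p under 0.05 and a log2 fold change over 0.59 in size. Whether libraries of a line came from separate cultures is not stated, so p-values may measure technical spread. The libraries of a line correlated at 0.994 across genes (Pearson's r) and differed by more than sampling noise. Floors cover counting error only. The fits were tested on simulated counts.

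The members and lists were chosen with earlier results of these data known. Named genes were the members, Irf8, of each list the 2 called genes with the largest change in each direction, and for each member spanning at least 2 log2 units the 3 genes nearest in pattern. Alternatives were DESeq2 1.42.0, upper-quartile scaling, no low-count filter, line sums, limma 3.58.1 voom with the line as random block, a group per line, the library number as a replicate block, each library or line left out, and no fold threshold. Genome positions are as deposited, and 18736 of 18768 gene IDs were in GENCODE M21.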

Additional observations from a re-analysis of the deposited data

Results flagged for a closer look

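The effect against the WT-labelled lines differed between MC010 and MC011, by edgeR's test of the difference itself, for 7 of the 10 genes, where 31.6% of all genes were called. The difference, MC010 minus MC011 in log2 units, was -1.31 for Cdh2, -2.96 for Cdh11, -1.40 for Cdh13, -0.62 for Snai1, -0.76 for Snai2 and -1.12 for Zeb2. For Cdh1 the fitted difference was -4.72, which depends on the prior count because MC010 had 2 and 0 counts. For Cdh1, Snai1, Snai2 and Zeb2 the estimates for MC010 and MC011 lay on opposite sides of the WT-labelled lines. Dixon's test marked no library within a label, but each library has a close twin from its own line, so it had little room to mark one.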

How the results depend on the processing

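Between the labels, 4 of the 10 genes were called, and 0 on line sums, 2 with MC654 left out, 2 with MC659 left out, and 2 to 4 with each library left out (2 without either library of MC659). It was 5 with MC011 left out, with one group per line and with no fold threshold, and 3 in limma with a random block per line. Between MC654 and MC659, 1 was called, 1 to 2 with each library left out, and 4 with no fold threshold, where 14.5% of all genes were. Without that threshold 9 were called for MC010 against the WT-labelled lines, beside 70.6% of all genes, and 8 for MC011, beside 65.3%. The 7 calls between MC010 and MC011 ranged over 6 to 8. The 8 came with no fold threshold, where 63.0% of all genes were called between these lines. The call of Snai1 between MC010 and MC011 was lost without the second library of MC010 (-0.44) and without the first of MC011 (-0.45). The cause of these changes was not tested.

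Changes of sign were seen in genes that were not called. Between the labels, leaving out each library gave -1.06 to 0.33 for Cdh1, -0.11 to 0.19 for Snai1, -0.20 to 0.085 for Snai2 and -0.089 to 0.039 for Twist2. With MC010 left out Cdh1 was 0.88, Snai2 0.26 and Zeb2 0.24, with MC011 left out Snai1 was -0.29 and Twist2 0.037, with MC654 left out Twist2 was 0.085, and with MC659 left out Snai2 was 0.20. Twist2 was 0.0076 with the line as a random block. With each library left out, Twist2 ran from -0.022 to 0.13 for MC010 and from -0.23 to 0.024 for MC011 against the WT-labelled lines. Between MC654 and MC659 the ranges were -0.21 to 0.46 for Cdh1, -0.052 to 0.20 for Snai1 and -0.023 to 0.091 for Twist1. Cdh1 was called with one group per line (-1.46, adjusted p = 0.0317) and with MC011 left out (-3.84, adjusted p = 0.00315), as was Zeb2 with MC011 left out (-0.86, adjusted p = 7.72e-07). Over the alternatives the adjusted p ran from 0.00315 to 0.998 for Cdh1 and from 7.72e-07 to 0.961 for Zeb2.

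Over all genes, 3404 were called between the labels, 1886 with the random block, 2079 without MC654, 1884 without MC659, 5827 without MC011 and 5675 with no fold threshold. A replicate block by library number was fitted, and 4 of the 10 were called between the labels, as without it. Deviations of libraries sharing a number correlated at -0.027 to 0.055, which does not exclude a shared shift in single genes. Twist2, for example, was higher in the first library than in the second in every line. It stood at 60.8 against 55.1 CPM in MC010, 56.9 against 47.9 in MC011, 64.2 against 56.9 in MC654 and 54.4 against 49.3 in MC659. Whether the number marks a batch was not tested. Depth limits Cdh1 in every line and Cdh13 in MC654, which had 8 and 5 counts.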

Other observations

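Cdh15, M-cadherin of muscle, which no rule named and which was chosen after its values were seen, stood at 0 counts in both libraries of MC011, against 207 and 158 in MC010, 407 and 347 in MC654, and 334 and 390 in MC659. The muscle markers Myod1 and Des also had 0 counts in both libraries of MC011, but the order of the other lines differed from that of Cdh15. Myod1 stood at 2.62 CPM in MC010, 0 in MC011, 0.0596 in MC654 and 0.112 in MC659 (line means). Des stood at 0.290, 0, 0.0179 and 0.0502 CPM in the same lines. Myh3 was under 1 CPM in each line and had 0 and 9 counts in MC011. Cdh3, P-cadherin, stood at 4.29 CPM in MC659 and under 1 CPM in the other 3 lines (line means).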
